A study of Homo sapiens with 6 samples.

Results

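The zinc finger genes of chromosome 19 were examined for H4K5la, the lactylated form of lysine 5 on the tail of histone H4. The genes are the protein-coding genes of chromosome 19 in RefSeq whose symbol is ZNF or ZFP followed by a number alone, which gave 245 genes among 1451 coding genes of the chromosome and 19974 coding genes of chromosomes 1 to 22 and X. ChIP-seq, the sequencing of DNA pulled down with an antibody to the mark, was done in the hepatocellular carcinoma line PLC/PRF/5. Cells were cultured with 20 mM lactate for 24 h (lactate replicates 2 and 3) or left without added lactate (control replicates 2 and 3), and each of the 4 libraries has its own peak list. All values come from 1 cell line, and nothing in the labels says whether replicates were separate cultures, so p-values refer only to the spread between libraries, which may be technical. A gene was counted as holding a peak where a peak overlapped its span plus 1 kb on either side by at least 1 bp.

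Most of these genes encode DNA-binding proteins built from a row of zinc fingers, each of which contacts a few bases, and many carry a KRAB domain near the amino end. KRAB recruits the corepressor TRIM28 and, through it, the histone methyltransferase SETDB1, and the main targets of the family are transposable elements. The genes arose by repeated tandem duplication and lie in dense clusters on chromosome 19. They are known for a repressed chromatin state over their bodies and zinc finger exons beside an open promoter. A few symbols in the set fall outside this picture, among them ZFP36, which encodes tristetraprolin, an RNA-binding protein that promotes decay of inflammatory mRNAs.

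The promoters below come from RefSeq (GRCh38.p14, 250 bases before to 50 after the annotated start) and are read 5' to 3' on the gene's strand. The first 4 belong to the best-ranked genes with a peak summit within 1 kb of the start in all 4 libraries and peaks that also overlap the printed window. The rank was that of the best peak over the gene, which at ZNF180 lay beyond its far end and not at its start. The last 2 belong to the longest genes with a known strand and without a peak in any library. Capitals mark the ETS core CCGGAAG or its reverse complement CTTCCGG.
ZNF177 (chr19:9362763-9363062, plus strand): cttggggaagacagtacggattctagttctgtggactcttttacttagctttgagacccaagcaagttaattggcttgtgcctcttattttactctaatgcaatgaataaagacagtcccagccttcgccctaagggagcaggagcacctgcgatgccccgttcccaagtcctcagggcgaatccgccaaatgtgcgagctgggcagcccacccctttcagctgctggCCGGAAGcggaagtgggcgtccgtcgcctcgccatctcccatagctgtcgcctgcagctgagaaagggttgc
ZNF180 (chr19:44500473-44500772, minus strand): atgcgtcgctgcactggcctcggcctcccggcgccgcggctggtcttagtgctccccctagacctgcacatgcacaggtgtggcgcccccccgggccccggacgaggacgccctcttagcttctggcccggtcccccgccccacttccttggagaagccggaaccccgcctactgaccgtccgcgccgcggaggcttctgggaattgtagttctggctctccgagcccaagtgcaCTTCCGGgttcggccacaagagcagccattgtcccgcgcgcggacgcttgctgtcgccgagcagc
ZNF229 (chr19:44448423-44448722, minus strand): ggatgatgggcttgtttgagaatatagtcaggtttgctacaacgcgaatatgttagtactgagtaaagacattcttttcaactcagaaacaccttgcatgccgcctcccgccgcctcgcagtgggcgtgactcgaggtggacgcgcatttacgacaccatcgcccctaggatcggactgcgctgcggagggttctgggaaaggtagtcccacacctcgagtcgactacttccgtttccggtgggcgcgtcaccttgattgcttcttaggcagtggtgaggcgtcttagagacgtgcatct
ZNF132 (chr19:58440104-58440403, minus strand): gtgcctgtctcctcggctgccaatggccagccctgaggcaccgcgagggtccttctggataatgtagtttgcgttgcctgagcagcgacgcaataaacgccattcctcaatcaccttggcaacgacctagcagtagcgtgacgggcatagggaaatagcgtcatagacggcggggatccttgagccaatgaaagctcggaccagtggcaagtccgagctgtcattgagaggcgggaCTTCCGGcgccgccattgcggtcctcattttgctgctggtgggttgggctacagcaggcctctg
ZNF431 (chr19:21141790-21142089, plus strand): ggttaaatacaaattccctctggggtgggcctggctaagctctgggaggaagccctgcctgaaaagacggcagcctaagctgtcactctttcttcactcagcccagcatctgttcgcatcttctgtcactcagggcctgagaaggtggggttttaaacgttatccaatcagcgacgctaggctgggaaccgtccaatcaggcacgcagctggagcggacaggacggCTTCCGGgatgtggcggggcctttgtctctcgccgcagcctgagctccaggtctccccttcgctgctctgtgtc
ZNF599 (chr19:34773166-34773465, minus strand): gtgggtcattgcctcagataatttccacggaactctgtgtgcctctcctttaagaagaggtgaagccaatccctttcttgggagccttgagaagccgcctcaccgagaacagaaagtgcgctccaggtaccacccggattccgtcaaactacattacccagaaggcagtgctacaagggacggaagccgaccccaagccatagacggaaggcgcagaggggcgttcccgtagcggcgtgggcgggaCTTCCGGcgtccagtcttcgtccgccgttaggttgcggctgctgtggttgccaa
ZNF229 held no ETS core, and each of the other promoters held 1, including those of the genes without a peak. The CpG count over the 300 bases was 14, 31, 23 and 20 at the first 4 promoters and 14 and 21 at the last 2, so it did not separate the genes with a peak from those without.

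The first comparison asked how often these genes carried the mark. They held peaks less often than the rest of the chromosome in each library. A peak lay over 70 and 76 zinc finger genes in lactate replicates 2 and 3 (28.6% and 31.0%), and over 89 and 91 in control replicates 2 and 3 (36.3% and 37.1%). The 1206 other coding genes of chromosome 19 had a peak in 49.5% and 50.2% of cases in the lactate libraries and in 59.8% and 63.8% in the control libraries. The gap averaged -22.6 percentage points and was negative in 4 of 4 libraries (exact two-sided sign-flip permutation test, p = 0.13, the smallest p that 4 libraries allow). The zinc finger genes were in addition the longer ones, with a median span of 23145 bp against 12777.5 bp.

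Per length the gap was wider. Over the 7.46 Mb of zinc finger gene windows there were 14.1 and 14.7 peaks per Mb in the lactate libraries and 19.3 and 18.6 in the control libraries. Over the 26.6 Mb of the other genes the values were 58.0 and 59.6 in the lactate libraries and 82.7 and 92.0 in the control libraries. The log2 ratio of zinc finger to other genes averaged -2.12 and was negative in 4 of 4 libraries (exact sign-flip permutation test, p = 0.13). Peaks covered 0.746% and 0.712% of the zinc finger windows with lactate and 1.16% and 1.22% in control, while they covered 3.36% and 3.37% of the other windows with lactate and 6.63% and 7.10% in control. The lactate difference in coverage of the zinc finger windows, -0.460 points in the full lists, was -0.116 points with 37951 peaks in each library.

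Span classes showed where the gap lay. Among genes of 20 to 40 kb, 25.2% and 25.2% of 103 zinc finger genes had a peak with lactate and 27.2% and 33.0% in control, against 68.5% and 70.5% of 241 other genes with lactate and 78.0% and 81.7% in control. For spans of 40 kb and over the zinc finger shares were 42.9% and 47.6% with lactate and 50% and 50% in control, and the other genes had 82.5% to 86.9%. Under 10 kb the groups overlapped in the lactate libraries, at 27.6% and 34.5% of 29 zinc finger genes and 29.4% and 30% of 470 other genes, while in the control libraries the zinc finger shares of 31.0% and 34.5% lay under the 42.1% and 45.1% of the other genes. The share of other genes with a peak rose with span class in each library, and that of zinc finger genes showed no such steady rise.

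**Figure D1:**
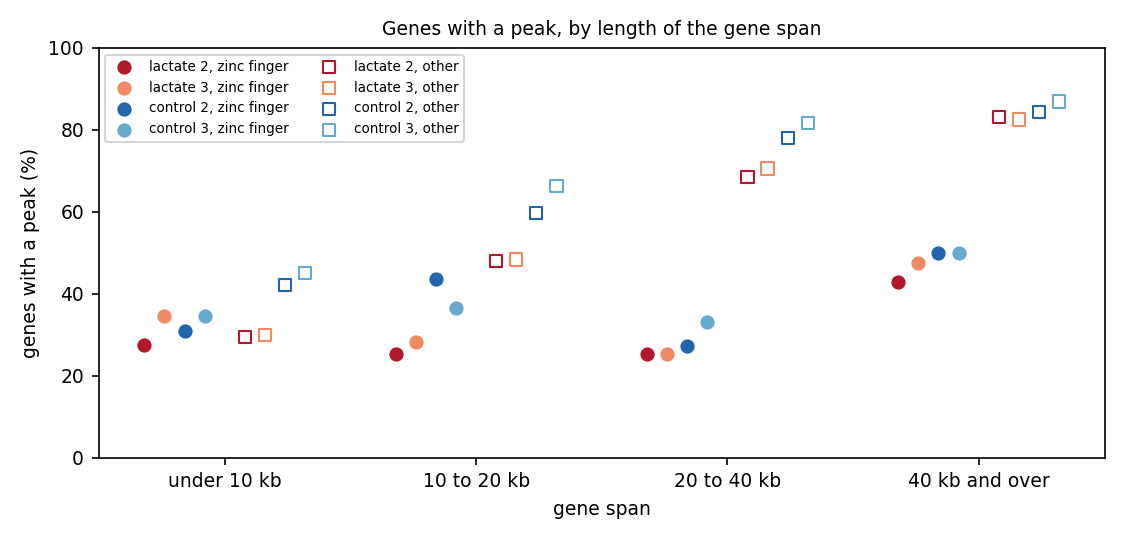
Percentage of genes with a peak (vertical axis) in 4 classes of gene span (horizontal axis) for each library, with filled circles for zinc finger genes and open squares for other coding genes of chromosome 19. From 10 kb upward every circle lies below every square of its class, with 25.2% to 33.0% against 68.5% to 81.7% at 20 to 40 kb.

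Of the 245 genes, 46 (18.8%) had a peak in all 4 libraries, where 37.6% of all coding genes of the chromosome and 28.6% of all coding genes did. A further 124 (50.6%) had none, beside 34.3% of all coding genes of the chromosome and 45.9% of all coding genes. Peaks in both control libraries alone occurred at 17 (6.94%), beside 7.1% on the chromosome and 5.66% of all. Peaks in both lactate libraries alone occurred at 4 (1.63%), beside 0.62% on the chromosome and 1.07% of all. Another 54 (22%) were mixed, beside 20.3% on the chromosome and 18.7% of all. Of the mixed genes 18 had a peak in 3 libraries, 10 in 1 library of each treatment and 26 in a single library. Of the 46 genes, 27 had exactly 1 peak in each library, and across the set 3 genes exceeded 3 peaks in any library. The same counts are not given for other genes, so they cannot be read as particular to the set.

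Those 3 genes were ZNF536, ZNF420 and ZNF787. ZNF536, a repressor of neuronal differentiation and the longest gene of the set (30225592 to 30713586), held 19 and 19 peaks with lactate and 28 and 23 in control. It lies outside the clusters. ZNF787 held 6 and 4 peaks with lactate and 7 and 7 in control, among them the widest peaks of the set at 2406 bp in control replicate 2 and 2257 bp in control replicate 3. ZNF420, known as a regulator of p53 activity, has its RefSeq start inside the span and held 5 and 6 peaks with lactate and 5 and 5 in control. Without ZNF536, an alternative chosen after seeing the data, the mean log2 ratio of peak density to the other genes was -2.30.

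The second comparison asked where in the genes the peaks lay. Summits were densest at the start of the gene in both sets of genes, and a larger share of the zinc finger gene peaks lay there. The strand and start were known for 213 of the 245 genes and for 972 of the others, and the RefSeq start differed from the end of the span by over 1 kb at 30 of the 213. Of the pairs of a peak and a zinc finger gene, 43.0% and 39.4% had the summit within 1 kb of the start with lactate and 40.1% and 39.4% in control, against 7.59% and 7.49% with lactate and 7.80% and 7.32% in control for the other genes. The difference averaged 32.9 percentage points and was positive in 4 of 4 libraries (exact sign-flip permutation test, p = 0.13). This comparison was added after the positions had been seen. Without ZNF536, whose peaks lay away from its start, the difference was 42.4 points.

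By gene, the order of the groups turned round at the start. A summit within 1 kb of the start was found at 43 and 38 zinc finger genes with lactate (20.2% and 17.8%) and at 54 and 54 in control (25.4% and 25.4%). The other genes had one in 10.7% and 10.6% of cases with lactate and in 15.4% and 16.3% in control. The zinc finger share was higher in 4 of 4 libraries, by 8.94 points on average (exact sign-flip permutation test, p = 0.13). On all other chromosomes the shares were 7.88% and 8.16% with lactate and 12.4% and 13.9% in control. A start peak in all 4 libraries occurred at 24 zinc finger genes (11.3%), beside 7.09% of all coding genes of the chromosome with a known strand and 3.9% of all such coding genes. Start peaks in both control libraries alone occurred at 10 (4.69%), beside 3.8% on the chromosome and 3.86% of all, and in both lactate libraries alone at 2 (0.939%), beside 0.506% on the chromosome and 0.721% of all.

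**Figure D2:**
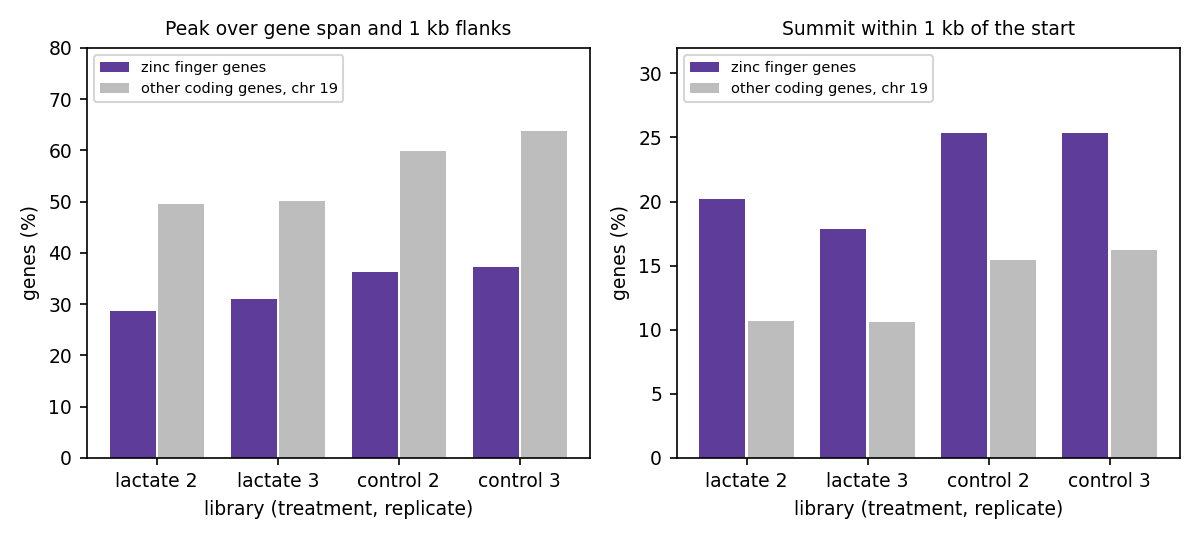
Percentage of genes (vertical axes) with a peak over the span and 1 kb flanks (left) and with a summit within 1 kb of the start (right) in each library, for zinc finger genes (purple) and other coding genes of chromosome 19 (grey). The purple bars are lower than the grey bars in each library on the left, at 28.6% to 37.1% against 49.5% to 63.8%, and higher on the right, at 17.8% to 25.4% against 10.6% to 16.3%.

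The summits of the start peaks lay mostly downstream in both sets of genes. The median summit of the start peaks was 161 and 191 bp downstream of the start with lactate and 237 and 221 bp in control, and 70.9% to 74.1% of these summits were downstream, against medians of 115 and 115 bp with lactate and 131 and 125 bp in control, and 67.3% to 72.0% downstream, for the other genes. The bin from 0 to 250 bp downstream held 6.57 and 6.10 summits per 100 zinc finger genes with lactate and 5.63 and 7.98 in control, against 2.98 and 4.01 with lactate and 4.53 and 5.35 in control for the other genes. The bin from 250 to 500 bp downstream held 6.57 and 6.10 summits per 100 zinc finger genes with lactate and 11.7 and 9.39 in control, against 2.06 and 2.16 with lactate and 3.4 and 3.5 in control for the other genes. Summits within 1 kb of the far end, where the zinc finger exon usually lies, made up 3% and 2.02% of the pairs with lactate and 2.92% and 2.92% in control, against 8.75% to 10.5% for the other genes. The median width of the zinc finger start peaks was 469 and 432 bp with lactate and 505 and 555 bp in control, against 436 and 474 bp with lactate and 597 and 575 bp in control for start peaks of the other genes. Peaks inside the zinc finger genes had median widths of 417 and 394 bp with lactate and 558 and 561 bp in control. Without ZNF536 these were 493.5 and 401.5 bp with lactate and 591.5 and 580.5 bp in control.

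**Figure D3:**
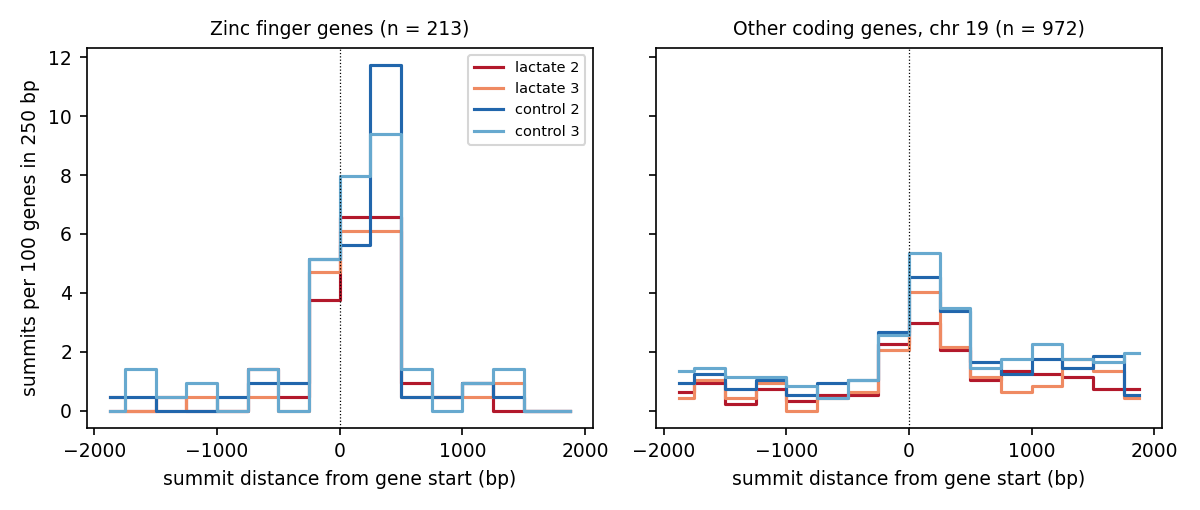
Summits per 100 genes in bins of 250 bp (vertical axis) by distance from the gene start, downstream positive (horizontal axis), for zinc finger genes (left) and other coding genes of chromosome 19 (right), with a line for each library. Both panels are highest within 500 bp downstream, with 5.63 to 7.98 summits per 100 zinc finger genes against 2.98 to 5.35 per 100 other genes at 0 to 250 bp, and 6.10 to 11.7 against 2.06 to 3.5 at 250 to 500 bp.

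Among the 46 genes with a peak in all 4 libraries the strand was known for 41, and 24 of these had a start peak in all 4, 4 in some and 13 in none. ZNF177 had the highest-ranked start peak. Its best peak had a fold enrichment over background, the authors' value, of 12.4 and 20.6 with lactate and 9.96 and 10.9 in control, in peaks spanning 9362846 to 9363334 in lactate replicate 2 and 9362883 to 9363320 in control replicate 2. That peak also lies in the window of the read-through gene ZNF559-ZNF177. At ZNF772 (57469586 to 57477566) the values were 13.5 and 11.3 with lactate and 8.94 and 7.61 in control, and the summit lay 266 to 296 bp downstream of the start in the 4 libraries. At ZNF229 they were 11.1 and 8.73 with lactate and 8.59 and 9.51 in control. Fold enrichment was used to rank peaks within a library and does not measure a change between libraries.

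ZNF180 carried a start peak and a second peak beyond its far end in each library. The peak beyond the far end had the higher fold enrichment, with 13.5 and 19.04 with lactate and 8.20 and 8.29 in control. ZNF208, whose single peak had a fold enrichment of 11.8 and 9.37 with lactate and 8.94 and 14.7 in control, carried it about 1 kb inside its far end in each library. ZNF701 held its best peak just beyond the far end with lactate, at 11.6 and 12.1, and a different best peak inside the gene in control, at 9.77 and 8.26. ZNF30 held best peaks of 10.6 and 7.30 with lactate and 11.4 and 9.48 in control. At ZNF536 the best fold enrichment was 16.3 and 15.6 with lactate and 10.9 and 11.6 in control, at ZNF420 11.4 and 12.6 with lactate and 10.1 and 12.0 in control, and at ZNF787 9.36 and 8.47 with lactate and 10.7 and 11.7 in control.

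**Figure D4:**
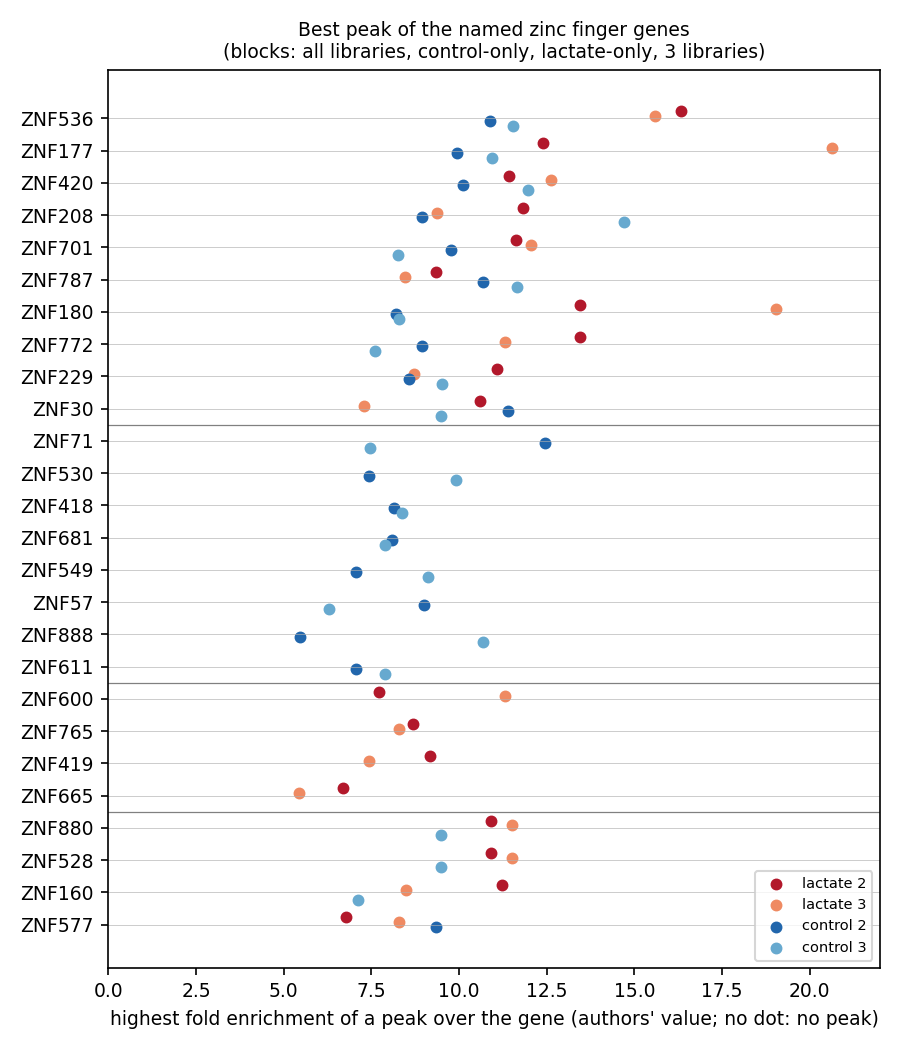
Highest fold enrichment of a peak over each named gene (horizontal axis, authors' value) in the 4 libraries, with blocks for genes with a peak in all libraries, in control alone, in lactate alone and in 3 libraries. A missing dot is a library without a peak, and the values run from 5.45 at ZNF665 to 20.6 at ZNF177, both in lactate replicate 3.

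Several genes with start peaks in all 4 libraries are known for promoter DNA methylation in tumours, and were picked out for that after their values were seen. The choice was made among genes with start peaks, so it does not show how often such genes held the mark. ZNF154 had a best fold enrichment of 5.40 and 6.52 with lactate and 12.4 and 9.22 in control. ZNF132 had 7.48 and 6.71 with lactate and 12.1 and 10.1 in control, ZNF671 had 8.91 and 13.1 with lactate and 8.16 and 6.44 in control, and ZNF582 had 4.56 and 4.81 with lactate and 5.73 and 8.07 in control. DNA methylation was not measured in these libraries. ZNF274, which recruits SETDB1 to the 3' exons of other zinc finger genes, had 1 and 2 peaks with lactate and 2 and 2 in control, none at its start.

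Some other genes with a known role, picked outside the naming rule, had few peaks. ZNF274, ZNF420 and ZNF536, whose roles are given above, had a peak in all 4 libraries. ZNF91 and ZNF93, which repress SVA and LINE-1 elements in primates, each had 1 peak in a single library, lactate replicate 2 for ZNF91 and control replicate 2 for ZNF93. ZNF808, needed for human pancreas development, had 2 peaks in control replicate 2 alone, and ZFP36 had 1 peak in lactate replicate 3 and 1 in control replicate 3. Of the longest genes without a peak in any library, ZNF676 spans 81216 bp, ZNF431 54014 bp and ZNF599 49529 bp. ZNF676, ZNF431 and ZNF599 were named by rule for their length. The genes picked for a known role do not show how often such genes held the mark.

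The promoter windows were compared over groups of genes. The ETS core was capitalised above after the shares of 4 motifs had been seen. The ETS core occurred in 93 of 213 zinc finger promoters (43.7%), against 13.5% of the other promoters of chromosome 19 and 14.2% of all 15812 coding promoters. It occurred in 15 of the 24 promoters with a start peak in all libraries (62.5%) and in 49 of the 139 without one in any (35.3%). For the other genes of the chromosome these shares were 15% of 60 and 13.6% of 762. The NF-Y box CCAAT was in 50% of the 24 and 51.1% of the 139, the GC box GGGCGG in 66.7% and 68.3%, and the NRF1 core GCATGCGC in 0 and 6 promoters, all on both strands, with each motif counted whether or not it overlapped another. The median CpG count was 20.5 with a start peak in all libraries and 20 without any. These are letter matches in a fixed window of 300 bases, related promoters share descent, and no test was made. Peaks overlapped this window in all libraries at 18 of the 24 genes, so a motif in the window may lie outside the peak.

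The third comparison asked how the clusters differed. Genes whose neighbours in the set lay within 500 kb were grouped, which gave 10 clusters of 5 or more genes with 232 of the 245 genes, called A to J in order along the chromosome. Among the 6 clusters of over 20 genes, H and J on the long arm had the highest shares of genes with a peak in each library. Cluster J (57191500 to 58489533, ZNF264 to ZNF446) had a peak at 46.3% and 43.9% of its 41 genes with lactate and at 58.5% and 56.1% in control, and cluster H (51571283 to 53580269, ZNF175 to ZNF331) at 51.3% and 53.8% of 39 with lactate and at 46.2% and 59.0% in control. Cluster C (11483429 to 12633834, ZNF653 to ZNF791) had one at 8% and 8% of its 25 genes with lactate and at 12.0% and 16.0% in control. Cluster D (19668153 to 24129968, ZNF101 to ZNF254), the widest, had one at 16.2% and 24.3% of 37 genes with lactate and at 18.9% and 18.9% in control. Cluster G (ZNF575 to ZNF180) had one at 13.0% and 17.4% of 23 genes with lactate and at 26.1% and 13.0% in control, and cluster F (ZNF565 to ZNF573) at 25.9% and 18.5% of 27 genes with lactate and at 40.7% and 40.7% in control. Cluster C was lowest of the 6 in the lactate libraries and in control replicate 2, and G in control replicate 3.

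A peak in all 4 libraries occurred at 15 of 41 genes in J, 10 of 39 in H and 5 of 27 in F. It occurred at 3 of 23 in G, 3 of 17 in I, 2 of 13 in B and 2 of 37 in D. In E it was 1 of 5, and outside clusters 5 of 13, while none of 5 in A or of 25 in C had one. Of the 24 genes with a start peak in all 4 libraries, 10 lay in cluster J: ZNF17, ZNF772, ZNF550, ZNF154, ZNF671, ZNF776, ZNF814, ZNF256, ZNF8 and ZNF132. These are 26.3% of the 38 genes of J with a known strand, beside 11.3% over the set. The genes of J were shorter, with a median span of 12930 bp against 34630 bp in D. Peaks per Mb were 26.8 and 26.8 with lactate and 40.9 and 39.5 in control in J, against 3.77 and 5.66 with lactate and 5.03 and 4.40 in control in D.

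**Figure D5:**
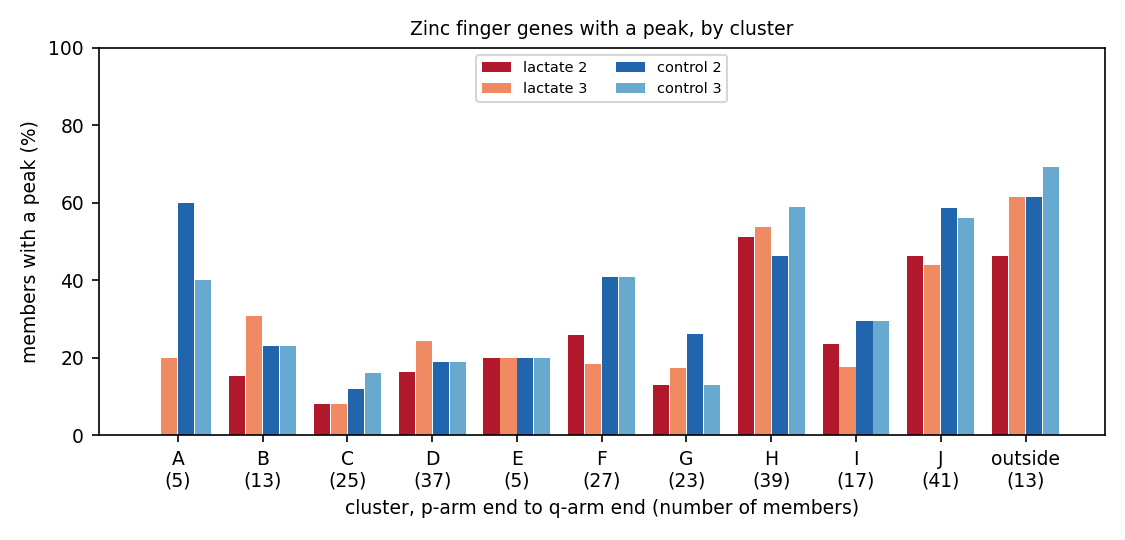
Percentage of zinc finger genes with a peak (vertical axis) in clusters A to J, in order along the chromosome, and in the genes outside clusters, with a bar for each library and the number of genes in brackets. Clusters H and J reach 43.9% to 59.0% in the 4 libraries and cluster C 8% to 16.0%.

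A comparison added after seeing the data set the clustered genes against their neighbours. The 90 other coding genes lying inside the clusters had a peak in 37.8% and 36.7% of cases with lactate and 46.7% and 48.9% in control. Read-through genes and other zinc finger genes outside the set are among the 90. The clustered zinc finger genes had one in 27.6% and 29.3% with lactate and 34.9% and 35.3% in control, lower than these neighbours in 4 of 4 libraries by 10.7 points on average (exact sign-flip permutation test, p = 0.13). The start share ran the other way, at 20.3% and 17.8% with lactate and 25.7% and 25.7% in control for the clustered zinc finger genes, against 14.3% and 13.0% with lactate and 19.5% and 20.8% in control for the neighbours. That difference averaged 5.52 points and was positive in 4 of 4 libraries (exact sign-flip permutation test, p = 0.13). Of the 75 neighbours that are not zinc finger genes by symbol, 36% and 33.3% had a peak with lactate and 45.3% and 48% in control. Their start shares were 14.1% and 10.9% with lactate and 20.3% and 20.3% in control. The lower share with a peak over the span did not hold in each cluster. In H, 16 neighbours had one in 37.5% and 25% of cases with lactate and 43.75% and 43.75% in control. The zinc finger genes of H lay above these in each library. In J, 15 neighbours had one in 46.7% and 40% with lactate and 53.3% and 53.3% in control. The zinc finger genes of J lay above these except in lactate replicate 2. The 13 zinc finger genes outside clusters held peaks in 46.2% and 61.5% of cases with lactate and 61.5% and 69.2% in control.

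The last comparison asked what changed with lactate. Fewer zinc finger genes held a peak with lactate, 73 ± 4.24 against 90 ± 1.41 in control (SD, n = 2 each), and both lactate libraries lay below both control libraries (exact two-sided permutation test, p = 0.33, the smallest p that 2 libraries against 2 allow). The lists themselves differed in size, with 37951 and 38402 peaks genome-wide with lactate and 52215 and 52959 in control. With 37951 peaks in each library the difference in genes with a peak turned to 6 more with lactate, against 17 fewer in the full lists, and that in genes with a start peak to 5 more, against 13.5 fewer. The direction of the lactate difference at these genes therefore depended on the number of peaks called.

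The lactate difference was then set against that of the other genes of the chromosome. Peaks per Mb over zinc finger genes were 14.4 ± 0.474 with lactate and 18.96 ± 0.474 in control, a ratio of 0.760, and over the other genes 58.8 ± 1.09 with lactate and 87.4 ± 6.59 in control, a ratio of 0.673 (SD, n = 2 each). With 37951 peaks in each library the difference over zinc finger genes was 1.47 peaks per Mb higher with lactate, against a difference of -4.56 in the full lists. The difference between these ratios was 0.17 on the log2 scale (exact permutation test, p = 0.33), and it moved with the control libraries, to 0.28 without control replicate 2 and 0.07 without control replicate 3. With 37951 peaks in each library it was 0.10. The median width of peaks over zinc finger genes was 439.8 ± 49.9 bp with lactate and 535.5 ± 40.3 bp in control (exact permutation test, p = 0.33). That difference of -95.8 bp became -60.5 bp without lactate replicate 3 (exact permutation test, p = 0.67). The share of peaks at the start was 41.2 ± 2.55% with lactate and 39.8 ± 0.516% in control (SD, n = 2 each; exact permutation test, p = 1).

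Merging the peaks of the 4 libraries gave 207 regions over zinc finger genes, with a peak from each library in 60, from the lactate libraries alone in 7 and from the control libraries alone in 29. These are 29.0%, 3.38% and 14.0% of the regions, beside 27.8%, 3.09% and 16.8% of the 3850 regions of the whole chromosome, so the shares were near the background. In 25 of the 60 regions both lactate peaks were narrower than both control peaks, and in 6 both were wider (41.7% and 10%), beside 54.7% and 8.13% of the 1070 such regions of the chromosome. The median width over the 60 was 514 and 488 bp with lactate and 614 and 687.5 bp in control.

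The 17 control-only genes made up 6.94% of the set, next to 7.1% of all coding genes of the chromosome and 5.66% of all coding genes, so this share was near the background. ZNF71 led them, with 3 peaks in each control library toward its far end and a best fold enrichment of 12.4 and 7.48. ZNF530, ZNF418, ZNF681 and ZNF549 each had a single control peak at the start, with values between 7.06 and 9.92. ZNF611 had a start peak in both control libraries and best values of 7.06 and 7.88. The best values were 8.99 and 6.29 at ZNF57, whose peak lay inside the gene, and 5.48 and 10.7 at ZNF888. With 37951 peaks in each library 6 genes were control-only. Without control replicate 3 there were 26, but leaving out a library drops a condition, so this count could not fall.

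The 4 lactate-only genes were ZNF600, ZNF665, ZNF765 and ZNF419 (1.63%, next to 0.62% of all coding genes of the chromosome and 1.07% of all coding genes), and 3 of them lie in cluster H. ZNF765 had a start peak at 8.68 and 8.30 with lactate, and ZNF419 one with 9.16 and 7.44. The ZNF765 peak also lies in the window of the read-through gene ZNF765-ZNF761, while the neighbour ZNF761 had start peaks in both control libraries alone. ZNF600 had best values of 7.73 and 11.3, and ZNF665 of 6.68 and 5.45. With 37951 peaks in each library 8 genes were lactate-only. Leaving out 1 library gave 7 to 11, of which 9 without lactate replicate 2 and 11 without control replicate 3. The lactate-only count, too, could not fall when a library was left out. At ZNF880 and ZNF528, which share a best peak, the fold enrichment was 10.9 and 11.5 with lactate and 9.48 in control replicate 3, with no peak in control replicate 2. ZNF160 had 11.2 and 8.48 with lactate and 7.11 in control replicate 3, and ZNF577 had 6.77 and 8.30 with lactate and 9.35 in control replicate 2.

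The partners of KRAB repression formed a list of 19 genes. A peak in all 4 libraries was found at UHRF1, DNMT1, CHD3 and MPHOSPH8, while 7 were mixed and 8 had none, SETDB1 among them. The shares of 21.1% in all libraries and 42.1% with none stand beside 28.6% and 45.9% of all coding genes. UHRF1, which guides maintenance DNA methylation, held 4 and 5 peaks with lactate and 6 and 7 in control, and the methyltransferase gene DNMT1 held 2 and 3 peaks with lactate and 9 and 6 in control. TRIM28 itself had 0 and 1 peaks with lactate and 2 and 1 in control. No start peak was found at the 16 partners with a known strand, and 80.4% of all coding genes with a known strand had none either. Of 27 further zinc finger genes of chromosome 19 outside the set, 9 had a peak in all 4 libraries, 1 in lactate alone, 1 in control alone, 4 were mixed and 12 had none. The shares of 33.3% in all libraries and 44.4% with none stand beside 37.6% and 34.3% of all coding genes of the chromosome. Among the 9 are ZNF559-ZNF177, ZNF816-ZNF321P, ZNF765-ZNF761 and ZNF324B, whose windows hold peaks already counted at genes of the set. The 27 are therefore not a separate group of peaks.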

How the data were processed

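H4K5la peaks were analysed in 4 libraries of PLC/PRF/5 cells, 2 with lactate and 2 without, and the 2 input libraries were not used here. Per the labels' protocols, trimming, alignment and duplicate removal came before peak calling. Bowtie2 2.3.4.2, Picard 2.18.11 and MACS2 2.2.6 and the hg38 build are listed per the submitters' processing notes, with calling options not given in the sources used here. How reads that fit several related zinc finger genes were placed is not given in the sources used here, so values at near-identical copies are uncertain. For each peak the authors deposited its position, a whole-number score, its fold over background (a ratio), and −log10 values of p and q. Each library has its own list. The lists hold no read counts, so depth is unknown, and a gene without a peak may carry the mark below the threshold. In a hepatocyte list 1 of 8 genes (HNF4A) had a peak in all libraries (12.5%, beside 28.6% of all coding genes), and peaks do not measure expression.

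Gene spans, strands and promoters came from RefSeq (GRCh38.p14). Peaks were joined to genes in Python 3.11.15 with pandas 2.3.3, numpy 2.4.6 and matplotlib 3.10.9, and the counting was tested on simulated data. Tests were exact permutations over the 6 assignments of libraries, or exact sign-flips over 4 libraries, so no p could fall below 0.33 or 0.13, and none could reach 0.05. Genes were named by rule: by mean rank of best fold enrichment within a library, up to 10 with a peak in all libraries, 8 control-only, 6 lactate-only and 4 in 3 libraries, with the 5 holding most peaks and the 3 longest without one; others are said to be chosen later. The part of the rule on finger patterns in proteins was not applied. The gene set, lists and tests were chosen with earlier results of these data known, and the start-peak and neighbour comparisons were added after seeing the values. Alternatives were a −log10 q of at least 5, equal numbers of peaks, other flanks and overlaps, other gene sets, each library left out and a replicate block.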

Additional observations from a re-analysis of the deposited data

How the results depend on the processing

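Across 208 values under other settings, 191 kept the direction of the full lists or, for counts, stayed within 1.5 times, which for a direction says nothing of size. With equal numbers of peaks per library, the lactate differences reversed to 6 genes with a peak, 5 genes with a start peak and 1.47 peaks per Mb, and the counts moved to 6 control-only and 8 lactate-only genes. The lactate difference in median fold enrichment over the genes was -0.0289 in the full lists and had no stable sign or size. It was 0.0235 with flanks of 3 kb, 0.0892 with a −log10 q of at least 5 and 0.174 without ZNF536. With equal numbers of peaks it was -1.19. That setting removed peaks mainly from the control lists, so its value also depends on which peaks remained. Leaving out each library in turn gave -0.380 to 0.322 for the lactate difference in median fold enrichment. For the lactate difference in the share of peaks at the start it gave -0.387 to 3.22 points, negative without lactate replicate 2. It also gave 21 to 26 control-only genes and 7 to 11 lactate-only genes. Those counts could only stay or rise, because a library left out drops a condition, so their rise does not show dependence on a library. The gaps to the other genes of the chromosome kept their sign in each setting run, with the share with a peak between -24.6 and -21 points and the share with a start peak between 6.76 and 9.5 points. Under the replicate block the lactate difference of -17 genes gave p = 0.5 (exact sign-flip permutation over 2 pairs, the smallest p possible), and over 20499 regions the same-numbered libraries did not deviate together (r = 0.00158), so the shared numbers were not taken as pairs.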
